A study of Caenorhabditis elegans with 3 samples.

Results

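The lbp (lipid binding protein) genes of Caenorhabditis elegans were examined in late young adult hermaphrodites, which fertilise themselves, with a mixed wild-type RNA as the reference. The 9 genes lbp-1 to lbp-9 were taken by symbol as a family, and no measured value enters that rule, although earlier results of these data were known. A probe annotated to exactly 1 symbol was found for 8 of the 9, and each of these 8 was measured by 1 probe on all 3 arrays, among 19264 genes or unnamed probes so measured. The gene lbp-9 was not analysed here. The study used 3 arrays with 2 channels: channel 2 held adult RNA of preparation 1, 2 or 3, and channel 1 held the same kind of reference RNA on each. The labels call the adults TP08 YA2 hermaphrodites and the reference wild type, and the sources used here give no strain, age in hours or treatment for either. The stages mixed in the reference, the dyes, and whether the preparations were separate cultures are not given either, so p-values cover only the spread of these 3 preparations, which may be technical. Array 1 stood apart, with correlations across genes of 0.763 and 0.773 to arrays 2 and 3, against 0.900 between arrays 2 and 3.

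The lbp genes encode nematode relatives of the fatty acid binding proteins, small barrel-shaped proteins that hold a fatty acid or similar lipid in an internal cavity and carry it through watery compartments. Vertebrate members act mostly inside the cell, whereas LBP-1, LBP-2 and LBP-3 of this nematode carry signal sequences for secretion. LBP-8 is known in C. elegans for carrying a lipid released by the lysosomal lipase LIPL-4 to the nucleus, where the nuclear hormone receptors NHR-49 and NHR-80 respond, and LBP-3 for a lipid signal sent by the gut to neurons. The intestine is the main fat store of the worm.

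The family split in the adult. The genes lbp-6, lbp-7 and lbp-8 were higher, by 2.07-fold to 2.48-fold on average. The 3 genes with secretion signals, lbp-1, lbp-2 and lbp-3, were lower, by 1.39-fold to 1.74-fold, and lbp-4 and lbp-5 did not pass the test. Values are log2 ratios, so that 1 stands for a doubling and −1 for a halving, taken as likely adult over reference because the labels list adult RNA as channel 2. If the deposited ratio ran the other way, every "higher" would read "lower". A ratio compares shares of the RNA from whole animals, which the adult labels call mRNA. Fewer cells of a type and less RNA per cell therefore cannot be told apart. The test was limma's moderated test against 0, adjusted by Benjamini-Hochberg at a threshold of 0.05. It ran over all 19264 genes or unnamed probes, called all genes here. By it 6 of the 8 measured genes passed, 75%, against 38.4% of all genes tested. In a fit without the unnamed probes, 6225 of 15081 genes passed and the calls of the 8 were the same. The gap between the family and all genes was not tested. Of all genes, 19.6% were called higher and 18.8% lower. Without array 1 the calls of all 8 genes were as with it, at means of 1.29, 1.31 and 1.14 for lbp-6, lbp-7 and lbp-8 and of −0.93, −0.49 and −0.66 for lbp-1, lbp-2 and lbp-3.

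**Figure D1:**
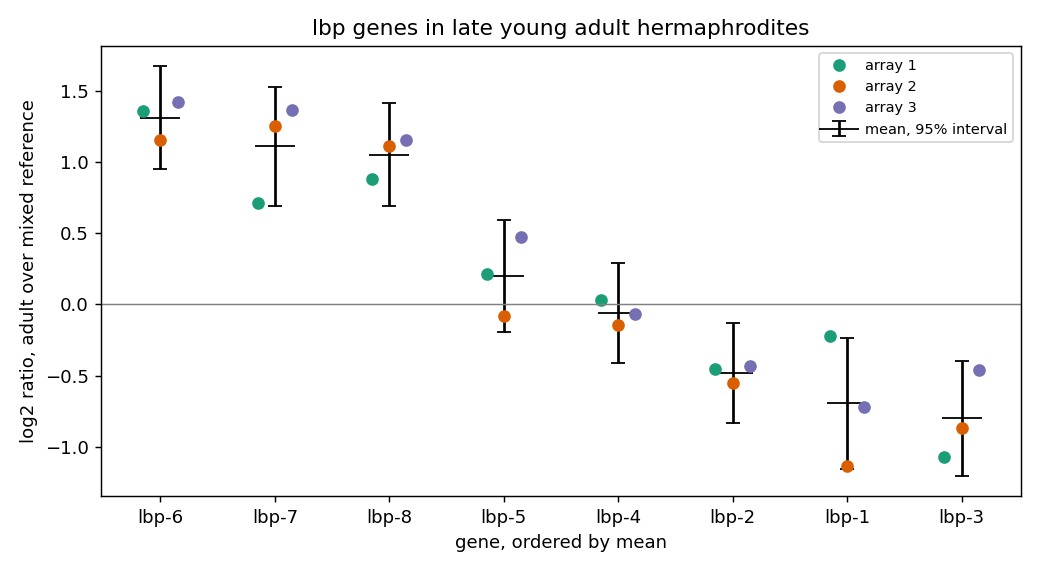
Log2 ratios of adult over reference RNA (vertical axis) for the 8 measured lbp genes, ordered by mean. Points are the 3 arrays, horizontal bars the means and error bars the moderated 95% confidence intervals; lbp-6, lbp-7 and lbp-8 lie above 0.7 on every array and lbp-1, lbp-2 and lbp-3 lie below −0.2 on every array.

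The gene with the highest ratio was lbp-6. Its deposited log2 ratios were 1.36, 1.16 and 1.42 on arrays 1, 2 and 3. The adult signal was thus 2.57, 2.23 and 2.68 times that of the reference, and the 3 preparations lay close together. The mean log2 ratio was 1.31 ± 0.14 (SD, n = 3), with a moderated 95% confidence interval of 0.95 to 1.67 and a limma adjusted p of 0.000461. Of all genes, 4.04% had a higher mean. Its rank hardly moved between arrays, at percentile 96.6, 93.1 and 95.2 of all genes on arrays 1, 2 and 3.

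The gene lbp-7 gave log2 ratios of 0.71, 1.26 and 1.37 on arrays 1, 2 and 3, with array 1 clearly below the others. In linear terms the adult had 1.64, 2.39 and 2.58 times the reference signal. Its mean was 1.11 ± 0.35 (SD, n = 3; interval 0.69 to 1.53; limma adjusted p = 0.00192). lbp-8, the lipid carrier of the lysosome to nucleus signal, gave 0.88, 1.12 and 1.16, again with array 1 lowest. Its mean was 1.05 ± 0.15 (SD, n = 3; interval 0.69 to 1.41; limma adjusted p = 0.00125), a 2.07-fold higher share in the adult. On arrays 2 and 3 both genes ranked between percentile 92.0 and 94.7 of all genes. On array 1 lbp-7 lay at percentile 85.5 and lbp-8 at 89.8.

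The 3 genes called higher also passed a size of 2-fold, which 8.34% of all genes did in that direction. Of the 3 called lower, 0 reached 2-fold on average, against 8.79% of all genes. Both counts depend on the zero point and the arrays used. With each array centred on the ribosomal protein genes, 0 genes were 2-fold higher and 2 were 2-fold lower, lbp-1 at −1.07 and lbp-3 at −1.17, and without array 3, lbp-6 alone was 2-fold higher, with lbp-7 at 0.98 and lbp-8 just under 1. The order among lbp-6, lbp-7 and lbp-8 was not resolved. lbp-6 exceeded lbp-7 by 0.20 ± 0.40 (SD of the difference over 3 arrays) and lay below it on array 2, and lbp-7 exceeded lbp-8 by 0.06 ± 0.20 and lay below it on array 1. With 3 arrays an exact sign-flip permutation test of such a difference cannot give a two-sided p below 0.25, so the differences between members are described only.

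Of the genes with secretion signals, lbp-3 had the lowest mean. Its log2 ratios were −1.07, −0.87 and −0.46 on arrays 1, 2 and 3, which are 0.475, 0.549 and 0.728 times the reference signal. The mean was −0.80 ± 0.31 (SD, n = 3; interval −1.20 to −0.39; limma adjusted p = 0.00780), a 1.74-fold lower share in the adult. All 3 values were below 0, with array 3 nearest to it. It was the only one of the 3 lower genes that passed whichever array was left out.

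The gene lbp-1 was measured at −0.22, −1.14 and −0.72 on arrays 1, 2 and 3, the widest spread in the family. Its ratios of 0.856, 0.455 and 0.608 to the reference range from a slight difference on array 1 to less than 1 over 2 on array 2. Its mean was −0.69 ± 0.46 (SD, n = 3; interval −1.15 to −0.23; limma adjusted p = 0.0256). Without array 2 its mean was −0.47 with an adjusted p of 0.193, and without array 3 its mean was −0.68 with an adjusted p of 0.0606, so this call rests on the full set of 3 arrays or on arrays 2 and 3.

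The gene lbp-2 had the smallest difference of those called and the smallest spread in the family. Its log2 ratios were −0.45, −0.55 and −0.43, or 0.731, 0.681 and 0.741 times the reference. The mean was −0.48 ± 0.07 (SD, n = 3; interval −0.83 to −0.13; limma adjusted p = 0.0375). The interval is wide beside the SD because limma draws each gene's spread toward that of all genes, whose median SD between arrays was 0.27. Without array 2 the adjusted p was 0.228 and without array 3 it was 0.161, while the mean moved little, to −0.44 and −0.50.

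The other genes lay near 0. lbp-5, which in C. elegans has been linked to fat storage together with NHR-49, gave 0.21, −0.08 and 0.48, so that the arrays differed in sign. Its mean of 0.20 ± 0.28 (SD, n = 3) had an interval of −0.19 to 0.60 and a limma adjusted p of 0.390. lbp-4 gave 0.03, −0.15 and −0.07, with a mean of −0.06 ± 0.09 (SD, n = 3; interval −0.41 to 0.29; adjusted p = 0.783). These intervals exclude a 2-fold difference in either direction for both genes, but smaller differences cannot be told from 0 with 3 arrays.

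In order of the mean the genes ran lbp-6, lbp-7, lbp-8, lbp-5, lbp-4, lbp-2, lbp-1 and lbp-3. Of the 7 pairs of neighbours in this order, 3 had the same direction on all 3 arrays. The widest step lay between lbp-8 and lbp-5, at 0.85 ± 0.30 (SD over 3 arrays), with values of 0.67, 1.20 and 0.68. lbp-4 exceeded lbp-2 by 0.42 ± 0.06 and lbp-5 exceeded lbp-4 by 0.26 ± 0.25, each on all 3 arrays. At the low end lbp-2 exceeded lbp-1 by 0.21 ± 0.41, and lbp-1 exceeded lbp-3 by 0.11 ± 0.64, a difference that was 0.85 on array 1 and −0.27 and −0.26 on arrays 2 and 3. The lowest of the 3 higher genes exceeded the highest of the 3 lower genes by 0.93 on array 1, 1.67 on array 2 and 1.59 on array 3. Since the genes were sorted into these sets by their own calls, this gap is given as a description.

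**Figure D2:**
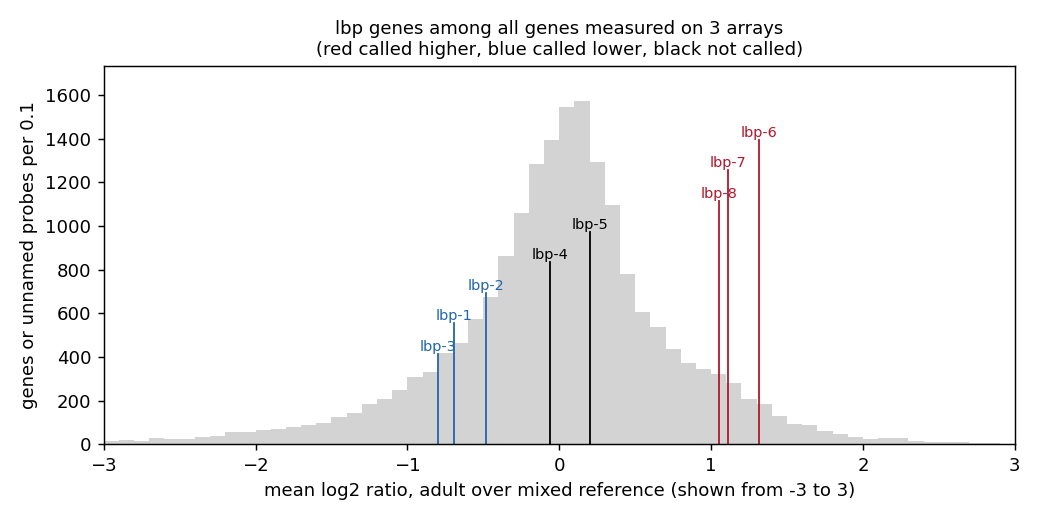
Mean log2 ratios (horizontal axis) of the 8 lbp genes, marked by vertical lines whose heights carry no value, over a histogram of 19264 genes or unnamed probes. The genes lbp-6, lbp-7 and lbp-8 lie in the upper tail with 4.04% to 7.42% of genes above them, and lbp-3 lies at percentile 12.1, within the lower shoulder of the distribution.

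The lower genes were less far out in the distribution of all genes than the higher ones. lbp-3, lbp-1 and lbp-2 lay at percentiles 12.1, 14.4 and 20.4 of the means. lbp-6, lbp-7 and lbp-8 lay at 96.0, 93.5 and 92.6. The median over the 8 genes was 0.07, beside 0.04 over all genes tested. The same sign on all 3 arrays was found for 6 of the 8 genes, and for 63.8% of all genes.

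Genes of the family that stand next to each other shared a call at some loci and not at others. In the order of genes in RefSeq (assembly WBcel235), used here for neighbourhood only, lbp-3, lbp-1 and lbp-2 stand next to each other on the X chromosome with no protein-coding gene between them, and all 3 were called lower. lbp-7 and lbp-8 stand on chromosome V with 3 protein-coding genes between them, and both were called higher. lbp-6 and lbp-5 stand on chromosome I with 1 gene between them and did not share a call: lbp-6 exceeded lbp-5 by 1.15, 1.23 and 0.95 on arrays 1, 2 and 3. lbp-4 stands alone on chromosome V.

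**Figure D3:**
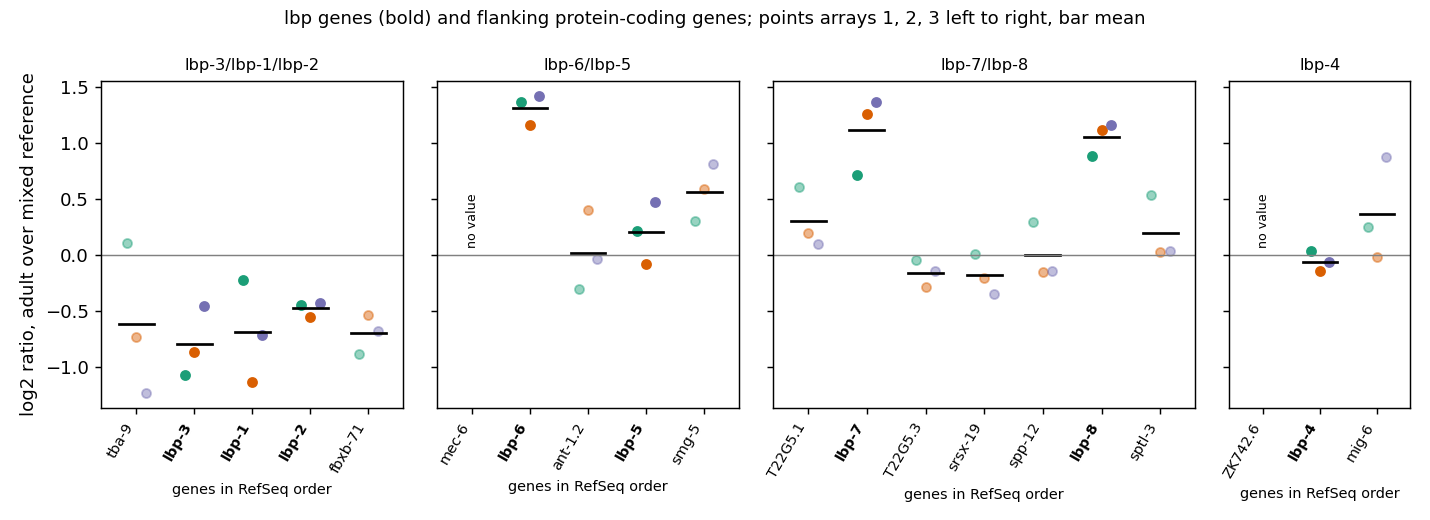
Log2 ratios of adult over reference RNA (vertical axis) for lbp genes, in bold and in full colour, and for the protein-coding genes between or beside them, in pale colour, placed in RefSeq order without distances; 2 genes without a value here are marked. Points are arrays 1, 2 and 3 from left to right and bars are means; lbp-7 and lbp-8 lie near 1 while the 3 genes between them lie between −0.18 and 0 on average.

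Of 10 measured flanking genes, 2 passed the test, against 38.4% of all genes. The 3 genes between lbp-7 and lbp-8 were T22G5.3 at a mean of −0.16 ± 0.12, the chemoreceptor gene srsx-19 at −0.18 ± 0.18 and the saposin-like gene spp-12 at −0.0024 ± 0.26 (SD, n = 3 each), and none of them passed. Beyond this pair, T22G5.1 lay at 0.30 ± 0.27 and sptl-3, which encodes a subunit of the enzyme that starts sphingolipid synthesis, at 0.20 ± 0.29, and neither passed. Between lbp-6 and lbp-5, ant-1.2, an ADP/ATP carrier gene of mitochondria, lay at 0.02 ± 0.35, and beside lbp-5 the RNA surveillance gene smg-5 was higher at 0.57 ± 0.25 (limma adjusted p = 0.0286).

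On the X chromosome the flanking genes lay on the same side of 0 as the cluster. The F-box gene fbxb-71, next to lbp-2, gave −0.89, −0.54 and −0.68 on arrays 1, 2 and 3 and was lower at −0.70 ± 0.18 (limma adjusted p = 0.00893). The alpha tubulin gene tba-9, next to lbp-3, gave 0.11, −0.73 and −1.23, a mean of −0.62 ± 0.68 that did not pass (adjusted p = 0.0815). Beside lbp-4, mig-6, which encodes an extracellular matrix protein, lay at 0.37 ± 0.46 and did not pass. In all, 2 of 10 measured flanking genes passed, 1 in each direction, against 38.4% of all genes. With so few flanking genes the gap between these shares was not tested. The probe sequences were not used here, so whether similar or adjacent genes share signal on a probe was not tested.

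The genes around LBP-8 and LBP-3 in lipid signalling were listed as a group. Of 15 genes listed for the lysosomal lipase, the nuclear hormone receptors and their known targets, 13 were measured, 1 was higher and 4 were lower, with a median of −0.16 beside 0.04 over all genes. Over all genes tested, 19.6% were called higher and 18.8% lower, and the gap between the list and these shares was not tested. The lipase gene lipl-4 gave 0.06, −0.49 and −0.78, a mean of −0.40 ± 0.43 (SD, n = 3; limma adjusted p = 0.142). The receptor genes nhr-49 and nhr-80 lay at −0.08 ± 0.07 and 0.41 ± 0.31 (limma adjusted p = 0.697 and 0.103), and mdt-15, a Mediator subunit gene that works with NHR-49, at 0.22 ± 0.27 (adjusted p = 0.348). The nuclear hormone receptor gene nhr-66, which acts with NHR-49, was higher at 0.50 ± 0.27 (limma adjusted p = 0.0487).

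The 4 lower genes were targets or outputs of this pathway, but not all listed targets passed. Named after seeing their values, cpt-5 lay at −0.04 ± 0.21 and fat-5 at −0.31 ± 0.31 (limma adjusted p = 0.872 and 0.200). acs-2, an acyl-CoA synthetase gene of fatty acid oxidation that NHR-49 activates in fasting, gave −3.56, −5.88 and −4.38, a mean of −4.61 ± 1.18. icl-1, the glyoxylate cycle gene, lay at −2.34 ± 0.54 and the fatty acid desaturase gene fat-7, picked out after seeing its value, at −1.18 ± 0.15. nlp-11, the neuropeptide gene that responds to the LBP-3 signal, gave −1.84, −1.45 and −1.16, a mean of −1.48 ± 0.34 (limma adjusted p = 0.000503). The measured neuron markers were also lower, 4 of 4, at a list median of −2.09, against 18.8% of all genes called lower. On arrays 1, 2 and 3 that list median was −1.50, −2.50 and −2.32, and its part in the value of nlp-11 was not tested.

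**Figure D4:**
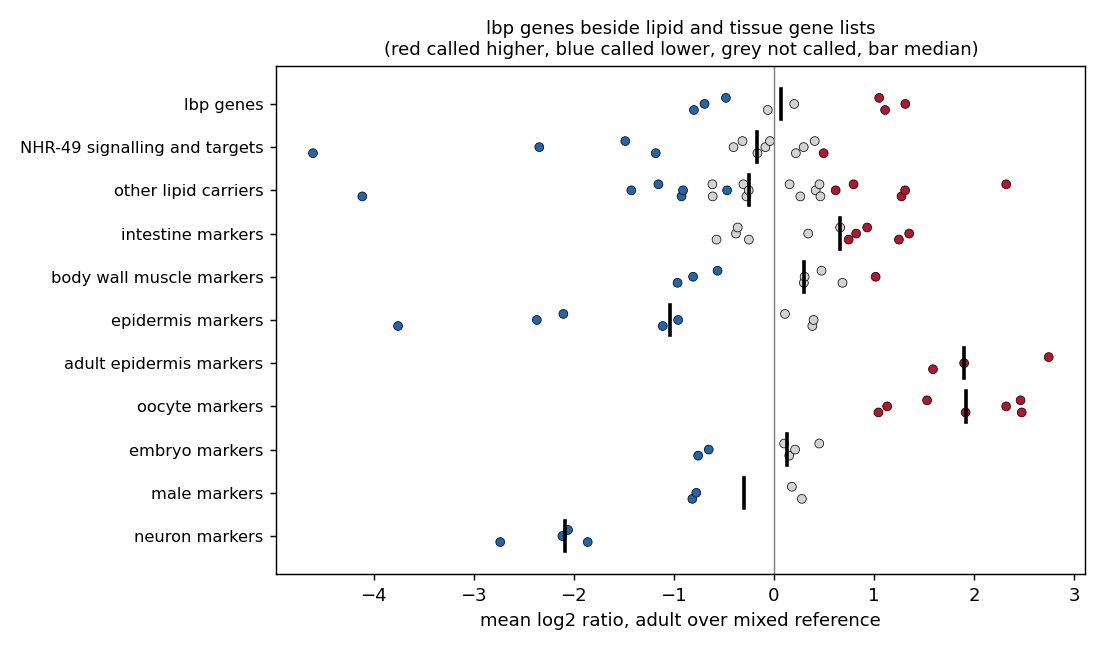
Mean log2 ratios (horizontal axis) of the 8 lbp genes and of the measured genes in each list, with 1 point per gene and a bar at the median. The 8 lbp genes lie between −0.80 and 1.31. The 21 other lipid carriers run between −4.11 for far-7 and 2.32 for rme-2, and the genes next to these ends lie at −1.42 and 1.31.

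Other carriers of lipid were also called in both directions. Of 24 listed genes for fatty acid and retinol binding proteins, yolk proteins and their receptor, acyl-CoA binding proteins and sterol transporters, 21 were measured, with 5 higher, 6 lower and a median of −0.25. Among all genes tested, 19.6% were called higher and 18.8% lower, and the gap between the lipid carriers and these shares was not tested. The yolk receptor gene rme-2, which is also in the list of oocyte markers given below, lay at 2.32 ± 0.28. dsc-4, which encodes a lipid transfer protein of lipoprotein assembly, lay at 1.31 ± 0.09 and the yolk protein gene vit-2 at 1.28 ± 0.18. The fatty acid and retinol binding protein genes far-7, far-3 and far-5 lay lowest at −4.11 ± 0.36, −1.42 ± 0.50 and −1.15 ± 0.22. In the same families, picked out after seeing their values, far-2 was higher at 0.62 ± 0.47 (limma adjusted p = 0.0418), and the yolk protein genes vit-5 and vit-6 did not pass, at 0.16 ± 0.47 and 0.26 ± 0.22. The list thus held members on both sides of the lbp range, but above it only rme-2.

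Markers of tissues were set beside the family. Among 11 measured intestine genes the median was 0.66, and 5 passed as higher and 0 as lower. Over all genes tested the shares were 19.6% higher and 18.8% lower. The vacuolar ATPase gene vha-6 lay at 1.35 ± 0.35 and the intestinal actin gene act-5 at 1.25 ± 0.61. The sodium/proton exchanger gene nhx-2 lay at 0.93 ± 0.07. Beside these, the means of lbp-6, lbp-7 and lbp-8 were 1.05 to 1.31. Those of lbp-1, lbp-2 and lbp-3 were −0.69, −0.48 and −0.80, and lbp-4 and lbp-5 lay at −0.06 and 0.20. The 6 intestine genes that did not pass are named here after seeing their values. The intestinal fate genes elt-2 and elt-7 lay at −0.57 ± 0.58 and −0.38 ± 0.17. Below 0 were also cpr-1 at −0.36 ± 0.59 and ifb-2 at −0.25 ± 0.49, while pept-1 lay at 0.66 ± 0.65 and asp-1 at 0.34 ± 0.98. The array medians of the intestine list were 0.89, 0.64 and 0.48, highest on array 1; lbp-7 and lbp-8 were lowest on array 1, and lbp-6 was lowest on array 2. How far the intestine's share of the RNA enters the values of the lbp genes was not tested.

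The 8 measured body wall muscle markers had a median of 0.30, with 1 called higher and 3 lower. The 8 epidermis markers ranged from −3.76 to 0.40 around a median of −1.03, with 0 called higher and 5 lower. The 3 adult epidermis collagen markers were all higher, with a median of 1.90, and so were 7 of 7 oocyte markers, with a median of 1.92. With the direction turned, both lists would read as lower. Of 6 measured embryo markers, 0 were higher and 2 lower, 1 of which, elt-3, also marks epidermis, and of 4 measured male markers 0 were higher and 2 lower. Of all genes tested, 19.6% were called higher and 18.8% lower. For the small muscle, embryo and male lists the gap from these shares was not tested.

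The arrays differed for the ribosomal protein genes. The median of 63 cytosolic ribosomal protein genes was 0.32, 0.08 and 0.72 on arrays 1, 2 and 3, while the median of all genes was 0.06, 0.01 and 0.01. All 8 lbp genes gave a greater log2 ratio on array 3 than on array 2, as did 51.7% of all genes. The median difference was 0.19 in the family and 0.01 over all genes. The differences were 0.55 for lbp-5, 0.42 for lbp-1, 0.41 for lbp-3 and 0.26 for lbp-6, and 0.04 to 0.12 for the other 4. When each array was centred on the ribosomal protein genes, the median of all genes became −0.34 and the calls of all 8 lbp genes were as before. On that scale, where 0 is the level of the ribosomal protein genes, lbp-6 lay at 0.94, lbp-7 at 0.74, lbp-8 at 0.68 and lbp-3 at −1.17, and lbp-5, which did not pass on either scale, lay below 0 at −0.17.

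**Figure D5:**
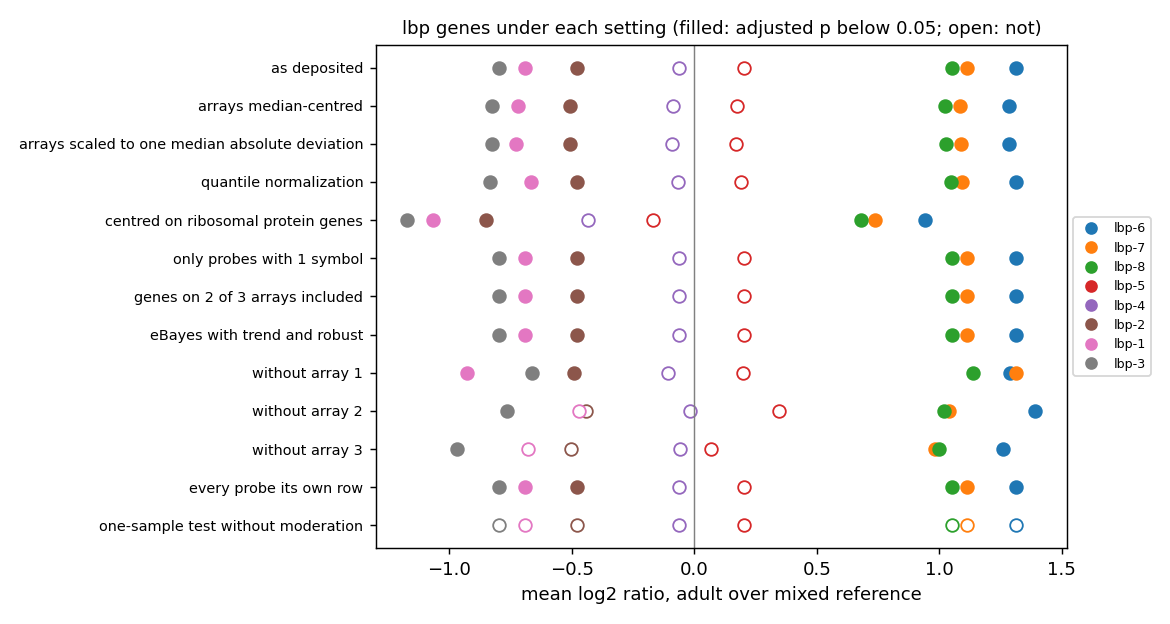
Mean log2 ratio (horizontal axis) of each lbp gene as deposited and under 12 other settings of the normalization, the genes fitted, the test and the arrays used (rows). Filled points passed an adjusted p of 0.05 and open points did not; lbp-6, lbp-7 and lbp-8 are open only in the one-sample test without moderation, while lbp-1 and lbp-2 are also open without array 2 and without array 3.

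Across the 12 settings that kept the direction of the ratio, the mean of lbp-6 lay between 0.94 and 1.39, that of lbp-7 between 0.74 and 1.31 and that of lbp-8 between 0.68 and 1.14. Each of these passed in 11 of the 12. lbp-3 lay between −1.17 and −0.66 and also passed in 11, and lbp-1 and lbp-2 passed in 9 each. The exception common to all was a one-sample test on the 3 values of each gene alone, which called 0 genes of any kind after adjustment and gave an unadjusted p under 0.05 for 5 of the 8.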

How the data were processed

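Two-channel arrays of 3 adult RNA preparations were used. The authors deposited log2 ratios for 20000 probes, some of them missing on an array; 19711 probes had a value on all 3. The base was inferred from the data: undoing the logarithm left ratios in steps of 0.001 (tolerance 0.01 of a step) for 99.98% of entries, but for only 3.35% once signs were turned. The authors' background correction, normalization and filters are not given in the sources used here, and no spot intensities were used, so faint spots cannot be told apart. Depth does not apply to arrays; their number limits the precision. Arrays gave 19833 to 19913 values. Each array label carries its own date, so day and preparation cannot be told apart.

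Probes were named through the platform annotation and RefSeq gene identifiers (15655 probes with 1 symbol, 198 with several, 4147 unlisted), and probes of a symbol were averaged. The limma package 3.58.1 (R 4.3.3) tested mean ratios against 0 (intercept, eBayes, two-sided, Benjamini-Hochberg); the script was tested on simulated data. This test leaves out the spread of the reference, and a channel effect and an adult difference cannot be told apart, since adult RNA was always in channel 2. Members and lists were chosen with earlier results of these data known. All members were named, with the genes beside or between them, lipl-4, nhr-49, nhr-80, mdt-15 and nlp-11, and at most 3 called genes at each end of a list; exceptions are stated.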

Additional observations from a re-analysis of the deposited data

How the results depend on the processing

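Of 8 lbp genes, 3 were called higher in every setting that kept the direction of the ratio except the one-sample test without moderation, in which the counts were 0 higher and 0 lower. By that test 5 of the 8 genes, and 6188 of all genes, had an unadjusted p under 0.05, and 0 genes passed after adjustment (smallest adjusted p = 0.0682), against 7393 by limma. The count of lower genes ranged from 1 to 3 with 1 array left out. It was 1 without array 2 and 1 without array 3, where lbp-1 and lbp-2 did not pass, and 3 without array 1. Centring on the ribosomal protein genes put lbp-5 at −0.17, a value that did not pass in either setting. With the sign of every value turned, the means were 0.69 for lbp-1, 0.48 for lbp-2, 0.80 for lbp-3, 0.061 for lbp-4, −0.20 for lbp-5, −1.31 for lbp-6, −1.11 for lbp-7 and −1.05 for lbp-8, with the same p-values, by construction. Median-centring, scaling, quantile normalization, fits on other sets of genes or on single probes, and eBayes with trend and robust changed no call among the 8. A filter on dim spots and another background correction were not run, since no intensities were used. No paired analysis was possible because the series holds 1 group.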
